A study of Mus musculus with 33 samples.

Results

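Metabotropic glutamate receptors are the G protein coupled receptors through which glutamate, the main excitatory transmitter of the cortex, tunes its own release and the response of the receiving cell. The 6 receptor genes described here, Grm2, Grm3, Grm4, Grm5, Grm7 and Grm8, were taken by symbol from the 23366 genes of each count table, and all 6 passed the filter on low counts in both sexes (15158 genes tested in female offspring and 15293 in male offspring). Levels are given as CPM (counts scaled to a common library size with TMM factors), and changes as log2 fold changes with their standard error (SE). A gene is called when its adjusted p lies below 0.01 in edgeR's quasi-likelihood test. The pups were C57BL/6 mice whose dams breathed in a whole body chamber, for 3 h on 5 days a week, either filtered air or the aerosol of an e-cigarette. The e-cigarette liquid held nicotine at 13 to 16 mg/mL in one exposed group and no nicotine in the other. Exposure covered gestation, and dams and pups were exposed together during lactation. Frontal cortex was taken at postnatal day 25 to 31, from 1 pup per litter. Each treatment had its own chamber, so treatment and chamber cannot be told apart.

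RNA-Seq counts were available for 6 air, 5 nicotine and 5 no nicotine samples of female offspring and for 6 air, 6 nicotine and 5 no nicotine samples of male offspring. Library totals ran from 17845672 to 27513174 counts. The sexes were sequenced in separate runs, so sex and run cannot be told apart, and levels were compared within a sex only. The library labelled male nicotine replicate 21 went against its label: it held 219 CPM of Xist, the RNA that coats an inactive X, and 1 Y-linked count, whereas the other male libraries held at most 0.246 CPM of Xist and 2140 to 3247 Y-linked counts. The male tests of the members against air, and the receptor shares of the male nicotine group, are therefore also given without it. The CPM ranges of single receptors in that group include it. All 16 markers of cortical glutamatergic neurons had counts in every group, and so did all 10 markers of striatal projection neurons. No defining marker of these 2 lists was at 0 throughout a group. In bulk tissue, fewer cells of a type and less RNA per cell cannot be told apart.

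By sequence and signalling the receptors fall into group I (Grm5 here), which acts through Gq and phospholipase C, and into groups II (Grm2 and Grm3) and III (Grm4, Grm7 and Grm8, with Grm6), which act through Gi/o and lower cyclic AMP. Group I receptors sit mostly on the postsynaptic side and are held near the synapse by Homer and Shank scaffolds. Group II and III receptors sit largely on axon terminals, where they dampen transmitter release, and Grm3 is also made by astrocytes.

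In the mm9 annotation Grm2 (ENSMUSG00000023192) lies on chromosome 9 from 106546868 to 106558440 on the minus strand, and Grm3 (ENSMUSG00000003974) on chromosome 5 from 9485236 to 9725352, also on the minus strand. Grm4 (ENSMUSG00000063239) lies on chromosome 17 from 27559332 to 27650286, Grm5 (ENSMUSG00000049583) on chromosome 7 from 94750952 to 95283417, Grm7 (ENSMUSG00000056755) on chromosome 6 from 110595575 to 111517224, and Grm8 (ENSMUSG00000024211) on the same chromosome from 27225121 to 28085178. None of the 50-base windows of the 6 members' protein-coding transcripts occurred in a protein-coding transcript of another gene (0%). Pseudogenes and non-coding genes were not searched. Other annotated genes overlap Grm5 (a U7 snRNA on the opposite strand), Grm7 (1 gene on the opposite strand and 1 pseudogene on the same strand) and Grm8 (SNORA17 on the opposite strand and Mir592 on the same strand). Whether the counting used strand is not given in the sources used here, so reads in those overlaps cannot be assigned with certainty.

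The RefSeq promoter table (GRCm38.p6) held 4 of the 6 members: Grm2, Grm3, Grm7 and Grm8. The 250 bases before the start of Grm2 and Grm3 are shown because these were the members called in one and the same comparison. Each runs 5′ to 3′ along the gene, with the GC box GGGCGG in capitals. The Grm2 stretch is chr9:106656110-106656359 and the Grm3 stretch chr5:9725353-9725602, both on the minus strand of GRCm38.p6.
Grm2: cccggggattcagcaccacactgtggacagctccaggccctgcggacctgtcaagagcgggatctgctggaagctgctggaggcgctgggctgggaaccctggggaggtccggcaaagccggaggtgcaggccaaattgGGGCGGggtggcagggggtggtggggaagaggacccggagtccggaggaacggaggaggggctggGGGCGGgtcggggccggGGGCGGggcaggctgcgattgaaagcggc
Grm3: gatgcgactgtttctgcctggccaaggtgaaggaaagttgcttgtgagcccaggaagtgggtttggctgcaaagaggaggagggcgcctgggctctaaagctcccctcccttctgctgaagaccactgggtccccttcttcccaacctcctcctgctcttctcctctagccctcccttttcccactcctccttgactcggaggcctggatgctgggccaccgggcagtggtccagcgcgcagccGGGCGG

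The Grm2 stretch held 3 GC boxes and the Grm3 stretch 1, which ended at the last base before the annotated start. Grm7 and Grm8 each held 1. Counted on both strands, the GC box occurred in 32.7% of the 32851 promoters of the table. G and C made up 71.2% of the Grm2 stretch and 62.4% of the Grm3 stretch, beside a median of 52.4% over the table. None of the 4 member promoters held the cAMP response element TGACGTCA (1.55% of all promoters), the T-box motif AGGTGTGA (1.12%), the TATA box TATAAA (12.4%) or the E-box CANNTG (66.2%) in these 250 bases.

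Levels of different receptors were compared per length, as CPM per kb of the union of annotated exons. Grm5 and Grm3 stood highest, Grm2 and Grm7 followed, and Grm4 and Grm8 were lowest. In air-exposed female offspring the per-length level was 36.6 ± 4.16 (SD, n = 6) for Grm5, 34.4 ± 2.67 for Grm3, 17.6 ± 5.94 for Grm2, 10.3 ± 0.94 for Grm7, 4.16 ± 0.85 for Grm4 and 2.003 ± 0.62 for Grm8. In air-exposed male offspring the same levels were 39.9 ± 3.37 (SD, n = 6), 35.2 ± 1.92, 13.3 ± 2.12, 10.05 ± 0.47, 4.64 ± 0.44 and 1.98 ± 0.18. Neighbours in this order did not always differ beyond their spread. Grm5 exceeded Grm3 in 28 of 33 libraries, and their group ranges of mean ± SD overlapped in air-exposed offspring of each sex. Grm3 exceeded Grm2, Grm7 exceeded Grm4 and Grm4 exceeded Grm8 in all 33 libraries.

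**Figure D1:**
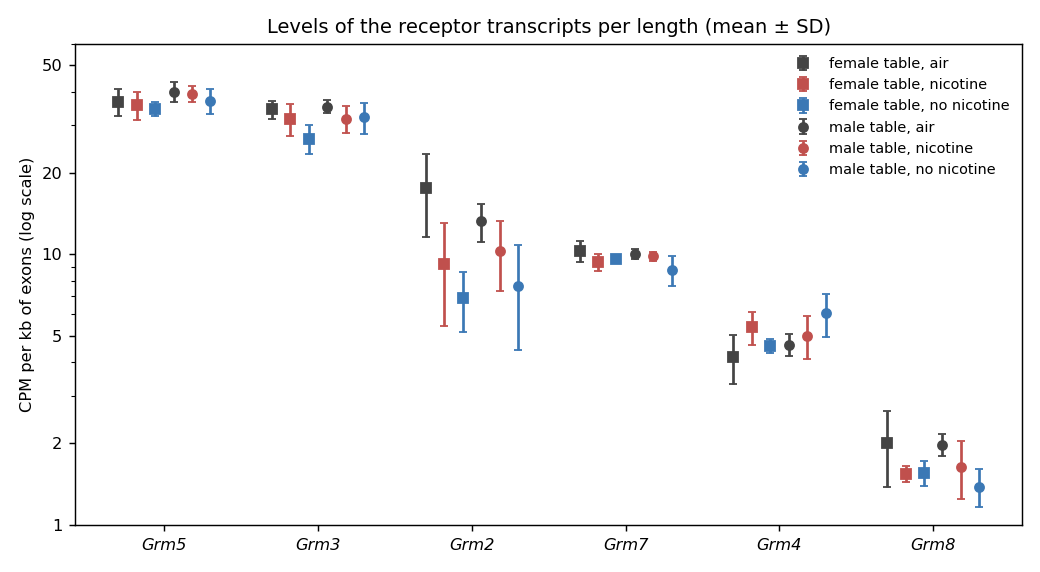
Mean level (± SD) of each receptor transcript in CPM per kb of exons on a log axis, by table (squares female, circles male) and treatment (dark grey air, red nicotine, blue no nicotine). Grm5 and Grm3 stand highest in each group, and the mean of Grm2 lies above that of Grm7 in air but below it without nicotine.

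The place of Grm2 in this order differed with treatment. Grm2 exceeded Grm7 per length in 6 of 6 air-exposed female libraries, in 3 of 5 with nicotine and in 1 of 5 without nicotine. Among male libraries it did so in 5 of 6 with air, in 3 of 6 with nicotine (2 of 5 without replicate 21) and in 2 of 5 without nicotine. With the length of the longest transcript in place of the union of exons, the Grm7 mean rose to 14.4 in air-exposed female offspring and to 14.0 in air-exposed male offspring, beside Grm2 means of 17.6 and 13.3, so the order of these neighbours in male offspring depends on the length used.

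As a share of the summed per-length level of all 6 members, group II receptors held 49.3% ± 5.65 (SD, n = 6) in air-exposed female offspring, 43.9% ± 4.16 (n = 5) with nicotine and 40.0% ± 3.73 (n = 5) without nicotine. In male offspring they held 46.2% ± 2.73 (n = 6) with air, 42.9% ± 2.53 (n = 6) with nicotine (42.5% ± 2.51, n = 5, without replicate 21) and 42.8% ± 6.32 (n = 5) without nicotine. The share of Grm5 was 35.0% ± 4.22, 38.4% ± 3.09 and 41.3% ± 3.03 in the same female groups and 37.9% ± 2.72, 40.1% ± 2.28 and 39.8% ± 4.24 in the male groups, and 40.7% ± 2.08 with nicotine without replicate 21. Within group II, the per-length ratio of Grm3 to Grm2 had a median of 2.25 (range 1.38 to 2.59) in air-exposed female libraries, 3.11 (2.74 to 6.67) with nicotine and 3.997 (3.26 to 4.58) without nicotine. In male libraries its medians were 2.54 (2.17 to 3.87), 3.27 (1.95 to 4.87) and 4.57 (2.94 to 6.22), and 3.41 (2.62 to 4.87) with nicotine without replicate 21. These shares and ratios are descriptions and were not tested.

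In female offspring exposed to aerosol without nicotine, 2 of the 6 receptors were called against air, Grm2 and Grm3, both lower. In that comparison 12.1% of all genes tested were called and 7.03% were called lower. DESeq2 called the same 2 of 6 (17.1% of all genes), and 3 of 6 had an unadjusted p below 0.05 (36.4% of all genes). In female offspring exposed to aerosol with nicotine, 0 of 6 were called (4.29% of all genes), 0 by DESeq2 (8.7%), although Grm2, Grm4, Grm7 and Grm8 had an unadjusted p below 0.05 (28.1%). In male offspring exposed without nicotine, 0 of 6 were called by edgeR (13.6% of all genes) and 2, Grm2 and Grm8, by DESeq2 (17.2%). Grm2, Grm4, Grm7 and Grm8 had an unadjusted p below 0.05 there (36%). In male offspring exposed with nicotine, 0 of 6 were called by edgeR (0%) and 0 by DESeq2 (1.04%), and 0 had an unadjusted p below 0.05 (14.4%). The comparisons with nicotine and without nicotine share their air samples. The plot of fold changes shows the 4 comparisons with air side by side.

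**Figure D2:**
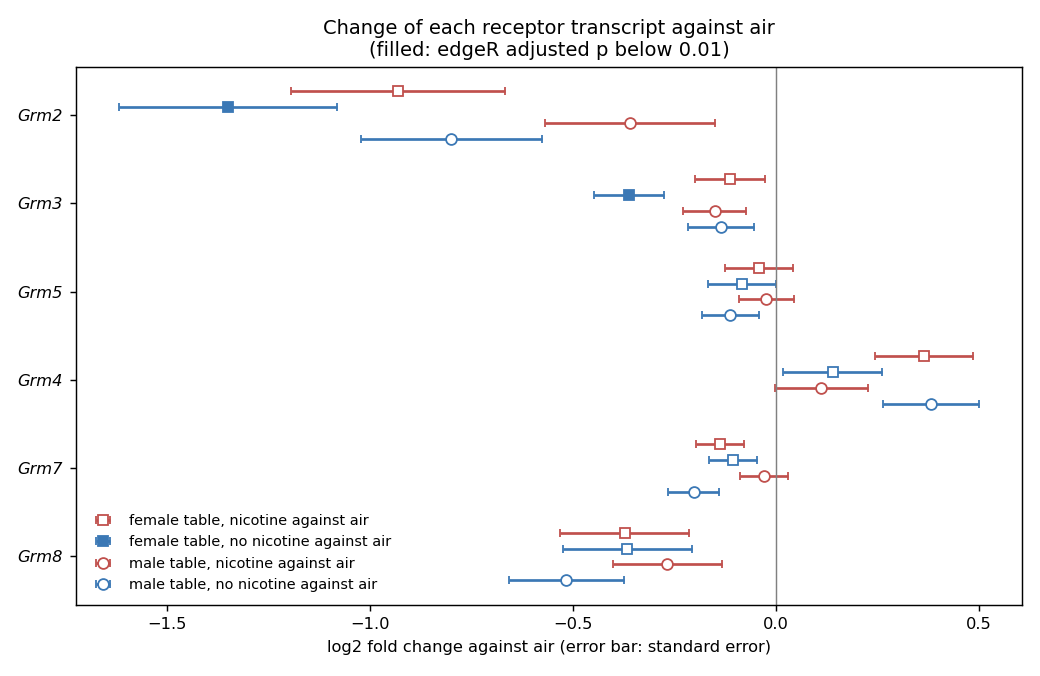
Log2 fold change against air (± SE) of each receptor transcript in the 4 comparisons (squares female, circles male, red nicotine, blue no nicotine), filled where edgeR's adjusted p is below 0.01. Only Grm2 and Grm3 without nicotine in the female table are filled, at −1.35 and −0.36.

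Grm2 encodes a presynaptic autoreceptor of glutamatergic axons. In air-exposed female offspring its level ran from 40.3 CPM (median 52.2) to 93.5 CPM over 6 libraries. The 5 libraries exposed without nicotine held 18.7, 18.9, 21.6, 22.4 and 32.7 CPM. All 5 lay below the lowest air library. Grm2 fell by 1.35 on the log2 scale (SE 0.27, 95% interval −1.92 to −0.78), to 0.392 of the air level (adjusted p = 0.0022). Grm2 was called with each of the 16 female libraries left out in turn, with adjusted p from 0.000865 to 0.0089.

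With nicotine, the 5 female libraries held 14.1, 21.4, 34.6, 38.4 and 44.7 CPM of Grm2. Of these, 4 lay below every air library, and the highest lay inside the air range. The log2 fold change was −0.93 (SE 0.26, 95% interval −1.49 to −0.37), or 0.525 of the air level, with an adjusted p of 0.0289 that did not pass the threshold.

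In air-exposed male offspring Grm2 ran from 30.5 CPM (median 45.5) to 49.9 CPM over 6 libraries. The 5 libraries exposed without nicotine held 16.0, 19.2, 20.4, 28.7 and 42.3 CPM, of which 4 lay below every air library and 1, replicate 7, lay within the air range. The log2 fold change was −0.80 (SE 0.22, 95% interval −1.27 to −0.33), or 0.575 of the air level (adjusted p = 0.0137 with edgeR, 0.00826 with DESeq2 and 0.00447 with limma-voom). The edgeR call turned on single libraries: adjusted p was 0.00967 without the library labelled male nicotine replicate 21, 0.00896 without air replicate 33 and 0.000917 without no nicotine replicate 7. With nicotine the 6 male libraries ran from 22.8 CPM (median 33.9) to 50.2 CPM, the highest value being the library labelled replicate 21, and overlapped the air libraries. The log2 fold change was −0.36 (SE 0.21, 95% interval −0.80 to 0.08, adjusted p = 0.462) with all libraries and −0.50 (adjusted p = 0.295) without replicate 21.

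**Figure D3:**
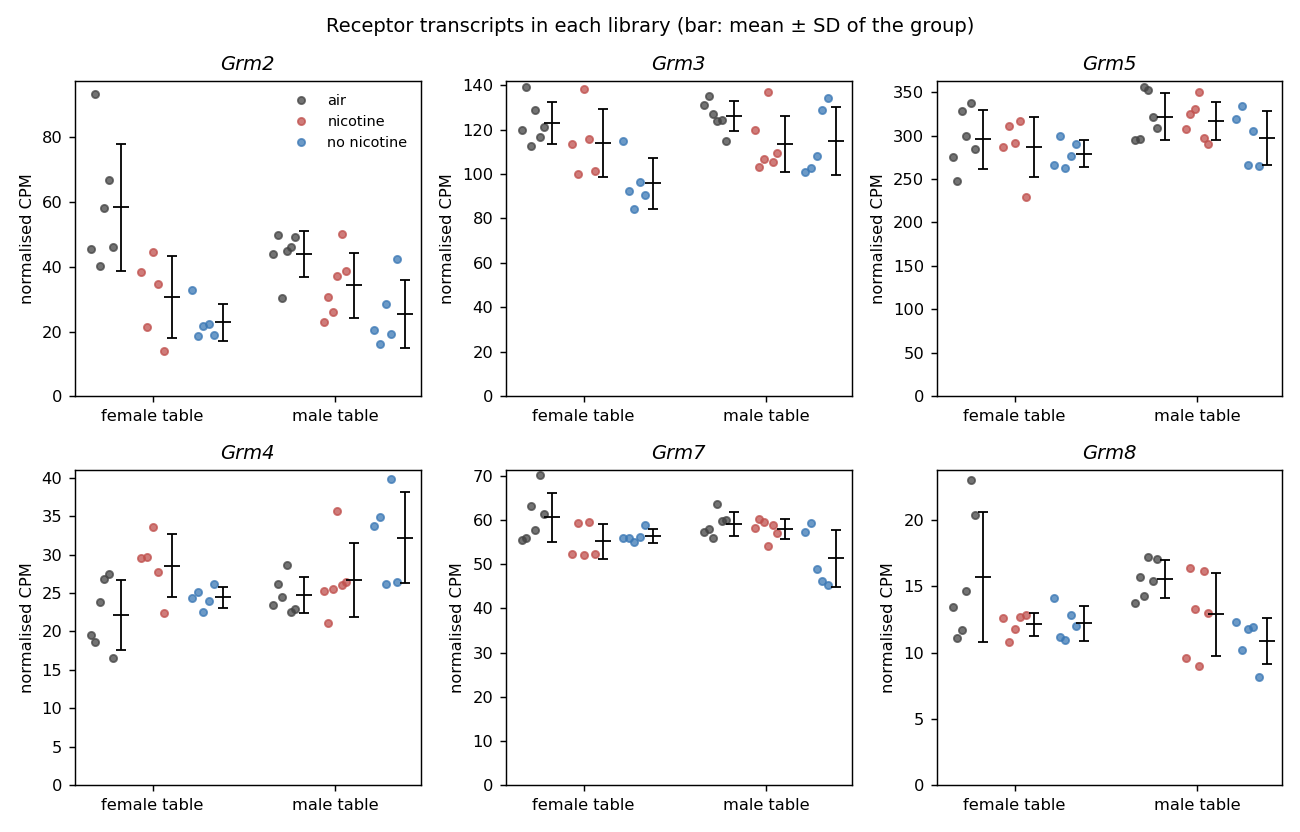
Normalised CPM of each receptor transcript in every library, by table and treatment (dark grey air, red nicotine, blue no nicotine), with the mean ± SD of each group as a bar. The 5 female no nicotine libraries lie at 18.7 to 32.7 CPM of Grm2, below all 6 air libraries.

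Markers of cortical glutamatergic neurons moved with Grm2. Of the 16 in the list, 11 were called lower and 1 higher in female offspring without nicotine, 2 lower and 1 higher with nicotine, 11 lower and 1 higher in male offspring without nicotine and 0 with nicotine. Their summed level was 3516 to 4343 CPM in air-exposed female libraries, 2515 to 3320 CPM with nicotine and 1691 to 3349 CPM without nicotine. In male libraries it was 3377 to 3960 CPM, 2545 to 3358 CPM and 1535 to 2574 CPM. With the mean log2 level of these markers in each library as a covariate, the Grm2 fold change without nicotine was −0.08 (SE 0.28, adjusted p = 0.984) in female offspring and 0.17 (SE 0.30, adjusted p = 0.821) in male offspring, and 0.17 (adjusted p = 0.789) there without replicate 21. In the fits with all libraries 0 and 12 genes in all were called. The marker level and the treatment moved together, and their parts in the Grm2 values cannot be told apart.

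**Figure D4:**
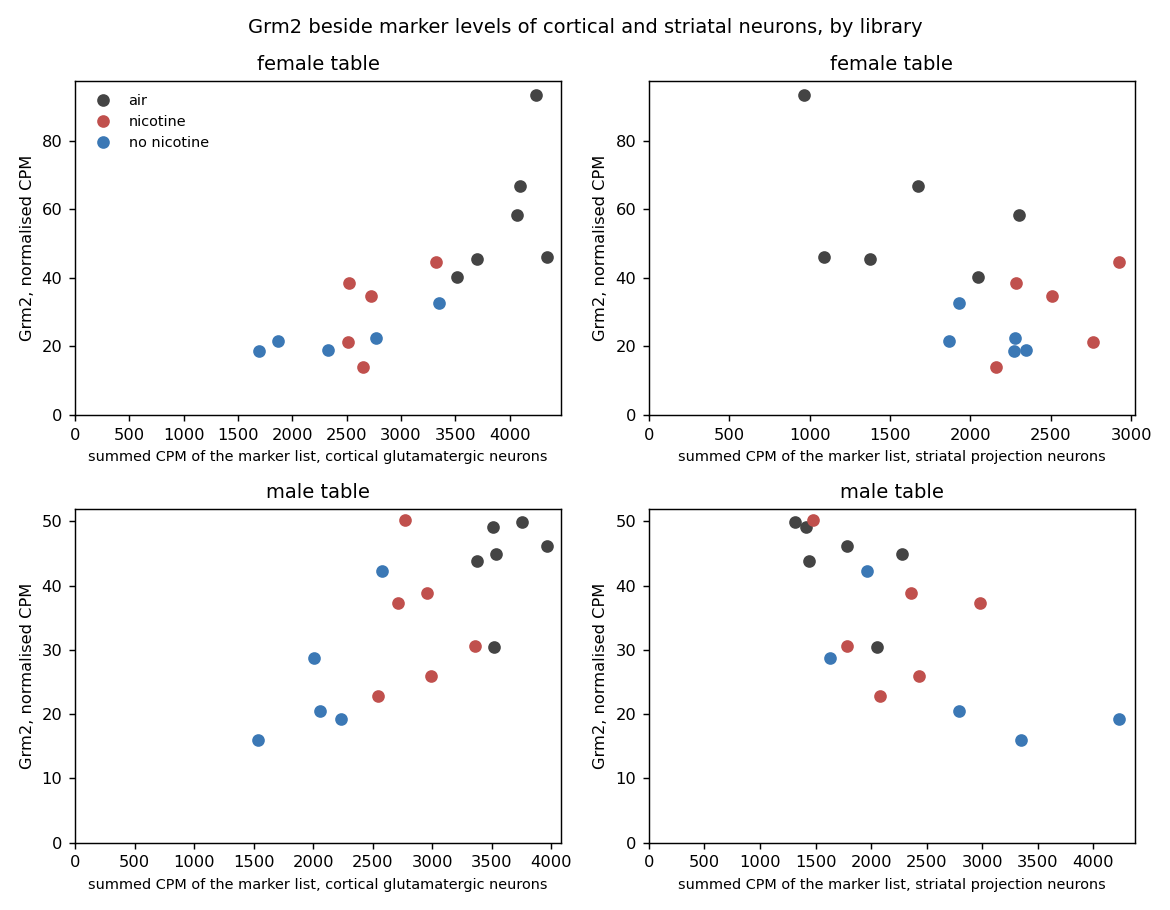
Grm2 in normalised CPM (vertical axis) against the summed CPM of the 16 cortical glutamatergic markers (left) and of the 10 striatal projection neuron markers (right), 1 point per library, coloured by treatment. The air libraries sit at high cortical marker levels, 3516 to 4343 CPM in the female table and 3377 to 3960 CPM in the male table.

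Other lists moved as well. Markers of basal forebrain cholinergic neurons were called higher in 6 of 6 cases in female offspring with and without nicotine and in male offspring without nicotine, and in 0 of 6 in male offspring with nicotine. Their summed level was 19.5 to 78.6 CPM in air-exposed female libraries, 82.5 to 192 CPM with nicotine and 107 to 283 CPM without nicotine, and 34.2 to 80.1, 92.8 to 141 and 109.9 to 233 CPM in the male groups. All 7 myelin genes were called higher in the same 3 comparisons. Of the 10 striatal markers, 3 were called higher in female offspring with nicotine, 1 without nicotine, 3 in male offspring without nicotine and 0 with nicotine. Their summed level was 966 to 2305, 2162 to 2926 and 1865 to 2346 CPM in female libraries and 1313 to 2275, 1476 to 2977 and 1631 to 4229 CPM in male libraries, for air, nicotine and no nicotine in that order. The male nicotine range began at 1781 CPM without replicate 21, and those of the cortical and cholinergic sums were the same. Of the 10 markers of GABAergic interneurons, 4 were called higher and 2 lower in female offspring without nicotine, 2 higher and 1 lower with nicotine, 3 higher and 1 lower in male offspring without nicotine and 0 with nicotine. Of the 6 markers of oligodendrocyte precursors, 3, 2, 4 and 0 were called higher in the same order, and of the 7 thalamic markers 2, 1, 1 and 0. Of the 6 choroid plexus markers, 2 were called higher in male offspring without nicotine and 0 in the other comparisons with air. Of the 4 cerebellar granule cell markers tested, 1 was called lower without nicotine in each sex. The summed level of all 6 had medians of 2545, 1636 and 1349 CPM in the female groups. In the male groups they were 2237, 1658 and 1159 CPM. This list shares Slc17a7 with the cortical list, so its sum is not separate from that of the cortical markers. Gabra6 and Barhl1 did not pass the filter. Gabra6, a defining marker of cerebellar granule cells, had no count in the female nicotine group. No marker of astrocytes, microglia, endothelium or olfactory bulb was called in any of the 4 comparisons. With the striatal score as a covariate the Grm2 fold change without nicotine was −1.18 (adjusted p = 0.0217) in female offspring and −0.42 (adjusted p = 0.221) in male offspring (−0.49, adjusted p = 0.177, without replicate 21).

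Grm3, the other group II receptor, is made by neurons and by astrocytes. Its level in air-exposed female offspring ran from 112 CPM (median 121) to 139 CPM over 6 libraries. Without nicotine the 5 libraries held 84.3, 90.8, 92.5, 96.4 and 115 CPM. The air and no nicotine ranges met only in replicate 1 without nicotine, since the other 4 libraries lay below every air library. Grm3 fell by 0.36 on the log2 scale (SE 0.09, 95% interval −0.54 to −0.18), to 0.779 of the air level (adjusted p = 0.00635). This call held in 8 of the 16 fits that left out 1 library. It was lost, at adjusted p of 0.0148, 0.0138, 0.0101 and 0.0121, without air replicates 2, 4, 5 and 6, and at 0.0196, 0.023, 0.0127 and 0.0197 without no nicotine replicates 2, 3, 4 and 5. With the cortical marker score as a covariate the fold change of Grm3 was 0.05 (SE 0.08, adjusted p = 0.954).

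With nicotine, the female libraries held 100.002, 101, 113, 116 and 138 CPM of Grm3, and 2 of 5 lay below the air range. The log2 fold change was −0.11 (SE 0.09, 95% interval −0.29 to 0.07, adjusted p = 0.431). In male offspring Grm3 ran from 115 CPM (median 126) to 135 CPM with air, from 103 CPM (median 108) to 137 CPM with nicotine, and stood at 101, 103, 108, 129 and 134 CPM without nicotine. These 3 ranges overlapped. The Grm3 log2 fold changes were −0.15 (SE 0.08, 95% interval −0.31 to 0.01, adjusted p = 0.385) with nicotine and −0.13 (SE 0.08, 95% interval −0.30 to 0.03, adjusted p = 0.247) without nicotine. Without replicate 21 they were −0.13 (adjusted p = 0.522) and −0.13 (adjusted p = 0.254). The summed level of the 10 astrocyte markers overlapped between the groups, at 11955 to 16371 CPM in air-exposed female libraries and 12563 to 16365 CPM without nicotine.

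Grm5, the group I member, is the receptor that couples synaptic glutamate to calcium release in the dendrites of forebrain neurons. It had the highest mean level per length in air, and its differences between groups were small. In female offspring it ran from 248 CPM (median 292) to 338 CPM with air, and stood at 229.7, 287, 292, 311 and 317 CPM with nicotine and at 263, 266, 277, 289.9 and 299.5 CPM without nicotine. In male offspring it ran from 295 CPM (median 315) to 356 CPM with air and from 290.5 CPM (median 316) to 350 CPM with nicotine, and stood at 264, 266, 305, 319 and 333 CPM without nicotine. The ranges overlapped in each sex. The 4 log2 fold changes against air lay between −0.11 and −0.02, with adjusted p from 0.266 to 0.92. None of their 95% intervals reached below −0.26 or above 0.13. Striatal neurons are rich in this receptor, and with the striatal score as a covariate the Grm5 fold change in male offspring without nicotine was −0.29 (SE 0.06, adjusted p = 0.0034), a call that the fit without the covariate did not make. It was −0.30 (adjusted p = 0.00524) without replicate 21. With the cortical marker score as a covariate it was −0.33 (SE 0.12, adjusted p = 0.158). The marker scores and the treatment moved together, and their parts in the Grm5 values cannot be told apart. Without a covariate and without replicate 21 the male fold changes were −0.01 (adjusted p = 0.984) with nicotine and −0.11 (adjusted p = 0.275) without nicotine.

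Grm4, a group III receptor of axon terminals, was the member with higher values after exposure. In female offspring it ran from 16.6 CPM (median 21.7) to 27.5 CPM with air, and stood at 22.4, 27.7, 29.5, 29.6 and 33.6 CPM with nicotine. Of these, 4 lay above every air library. The fold change on the log2 scale was 0.36 (SE 0.12, 95% interval 0.11 to 0.62, adjusted p = 0.0561). Without nicotine the libraries held 22.5, 23.98, 24.4, 25.2 and 26.1 CPM, all within the air range, with a fold change of 0.14 (SE 0.12, 95% interval −0.12 to 0.39, adjusted p = 0.439).

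In male offspring Grm4 ran from 22.6 CPM (median 23.9) to 28.6 CPM with air, and stood at 26.1, 26.5, 33.7, 34.9 and 39.9 CPM without nicotine. Here 3 of 5 lay above every air library. The Grm4 log2 fold change was 0.38 (SE 0.12, 95% interval 0.13 to 0.63, adjusted p = 0.0242). Of the 17 fits that left out 1 library, it passed the threshold in 1, without nicotine replicate 19 (adjusted p = 0.00915). With nicotine the 6 libraries ran from 21.1 CPM (median 25.7) to 35.6 CPM, with a fold change of 0.11 (SE 0.11, 95% interval −0.13 to 0.35, adjusted p = 0.717). Without replicate 21 the male values were 0.12 (adjusted p = 0.742) with nicotine and 0.38 (adjusted p = 0.0295) without nicotine. With the striatal score as a covariate the Grm4 fold changes were −0.02 and −0.11 in female offspring, with and without nicotine, and −0.05 and 0.07 in male offspring, with adjusted p from 0.425 to 0.958. The male values were −0.11 and 0.023 without replicate 21.

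Grm7, a receptor of the presynaptic active zone with a low affinity for glutamate, varied little among air libraries. In female offspring it ran from 55.6 CPM (median 59.5) to 70.2 CPM with air, and stood at 52.2, 52.4, 52.4, 59.3 and 59.7 CPM with nicotine and at 55.0, 55.9, 56.0, 56.3 and 58.9 CPM without nicotine. The groups overlapped. The fold changes on the log2 scale were −0.14 (SE 0.06, 95% interval −0.26 to −0.01, adjusted p = 0.135) and −0.11 (SE 0.06, 95% interval −0.23 to 0.02, adjusted p = 0.208). In male offspring it ran from 55.9 CPM (median 58.9) to 63.8 CPM with air and from 54.1 CPM (median 58.5) to 60.2 CPM with nicotine, and stood at 45.4, 46.1, 48.9, 57.3 and 59.3 CPM without nicotine. Of the no nicotine libraries, 3 lay below every air library and 2 inside the air range. The Grm7 log2 fold change without nicotine was −0.20 (SE 0.06, 95% interval −0.33 to −0.07, adjusted p = 0.0244), and 0.00444 without no nicotine replicate 3. With nicotine it was −0.03 (SE 0.06, 95% interval −0.15 to 0.10, adjusted p = 0.879). Without replicate 21 these values were −0.20 (adjusted p = 0.0301) and −0.03 (adjusted p = 0.88). With the cortical marker score as a covariate the male value without nicotine was −0.50 (SE 0.09, adjusted p = 0.0215). It was −0.50 (adjusted p = 0.0338) with that score and without replicate 21.

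Grm8, a group III receptor with a high affinity for glutamate, had the lowest level, with 172 to 537 counts per library. In female offspring it ran from 11.1 CPM (median 14.1) to 23.1 CPM with air, and stood at 10.8, 11.8, 12.6, 12.7 and 12.9 CPM with nicotine and at 10.9, 11.2, 11.97, 12.8 and 14.1 CPM without nicotine. Both exposed ranges were narrow and lay at the lower end of the wide air range. The fold changes on the log2 scale were −0.37 (SE 0.16, 95% interval −0.71 to −0.04, adjusted p = 0.134) with nicotine and −0.37 (SE 0.16, 95% interval −0.70 to −0.03, adjusted p = 0.103) without nicotine.

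In male offspring Grm8 ran from 13.7 CPM (median 15.5) to 17.2 CPM with air, and stood at 8.14, 10.2, 11.8, 11.9 and 12.3 CPM without nicotine. All 5 lay below every air library. The Grm8 log2 fold change was −0.52 (SE 0.14, 95% interval −0.81 to −0.22), or 0.7 of the air level, with an adjusted p of 0.0127 in edgeR and of 0.0027 in DESeq2. It passed the threshold in edgeR without nicotine replicate 15 (0.0091), without nicotine replicate 19 (0.00575) and in a fit of the 2 groups alone (0.00304). With nicotine the 6 libraries ran from 8.97 CPM (median 13.2) to 16.4 CPM, and 4 lay below every air library. The fold change was −0.27 (SE 0.13, 95% interval −0.55 to 0.01, adjusted p = 0.376). Without replicate 21 the male values were −0.34 (adjusted p = 0.272) with nicotine and −0.52 (adjusted p = 0.0101) without nicotine.

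The aerosols with and without nicotine were also compared with each other. In female offspring 0 of 6 receptors were called (0% of all genes by edgeR and 0% by DESeq2), and 1, Grm3, had an unadjusted p below 0.05 (8.36%). Its log2 fold change, with against without nicotine, was 0.25 (SE 0.09, 95% interval 0.06 to 0.44, adjusted p = 0.574), and all 5 nicotine libraries lay above the median of the no nicotine libraries. For Grm2 it was 0.42 (SE 0.28, 95% interval −0.17 to 1.01, adjusted p = 0.697). In male offspring 0 of 6 were called by edgeR (0.248%) and 0 by DESeq2 (2.99%). Grm4 and Grm7 had an unadjusted p below 0.05 (20.1%). The Grm4 fold change was −0.27 (SE 0.12, 95% interval −0.52 to −0.02, adjusted p = 0.206), the Grm7 fold change 0.17 (SE 0.06, 95% interval 0.04 to 0.31, adjusted p = 0.125) and the Grm2 fold change 0.44 (SE 0.22, 95% interval −0.03 to 0.91, adjusted p = 0.283). Without replicate 21 the male values were 0.30 (adjusted p = 0.502) for Grm2, −0.26 (adjusted p = 0.283) for Grm4 and 0.17 (adjusted p = 0.191) for Grm7.

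Whether the female and the male response to each aerosol differed was tested over 15105 genes. For aerosol with nicotine 0 of 6 receptors were called (0% of all genes by edgeR and 0.00662% by DESeq2), and 0 had an unadjusted p below 0.05 (6.47%). For aerosol without nicotine 0 of 6 were called (0% by edgeR and 0% by DESeq2), and 0 had an unadjusted p below 0.05 (4.91%). The intervals were wide for Grm2. Its female change minus its male change was −0.56 (95% interval −1.28 to 0.15, adjusted p = 0.831) with nicotine and −0.54 (95% interval −1.28 to 0.20, adjusted p = 0.948) without nicotine. For Grm3 without nicotine it was −0.22 (95% interval −0.47 to 0.03, adjusted p = 0.945), so the call of Grm3 in one sex alone was not shown to differ between the sexes. Without replicate 21 the Grm2 difference with nicotine was −0.42 (adjusted p = 0.895).

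Grm6, the receptor of retinal bipolar cells, had 3 counts over all 33 libraries and was not tested.

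The genes through which the receptors act were described in 6 lists of 55 genes, all tested in both sexes. Of these 55, 3 were called higher and 20 lower (41.8%) in female offspring without nicotine, beside 12.1% of all genes. In female offspring with nicotine 2 were called higher and 3 lower (9.09%, beside 4.29%), in male offspring without nicotine 4 higher and 15 lower (34.5%, beside 13.6%), and in male offspring with nicotine 0. These counts moved with single female libraries. With nicotine the count of 5 was 2 or 3 without any 1 of air replicates 2, 4, 5 and 6 and nicotine replicates 1, 2, 5 and 6 or no nicotine replicate 5, 13 without nicotine replicate 3 and 10 without no nicotine replicate 1. Without nicotine the count of 23 was 15 without air replicate 6, 10 without no nicotine replicate 2 or 3 and 13 without replicate 5. Without the library labelled replicate 21 the male counts were again 0 and 19. Between the 2 aerosols 0 were called in either sex. The median log2 fold change of the 55 genes without nicotine was −0.14 in female and −0.11 in male offspring, beside 0.01 and 0.02 over all genes tested.

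**Figure D5:**
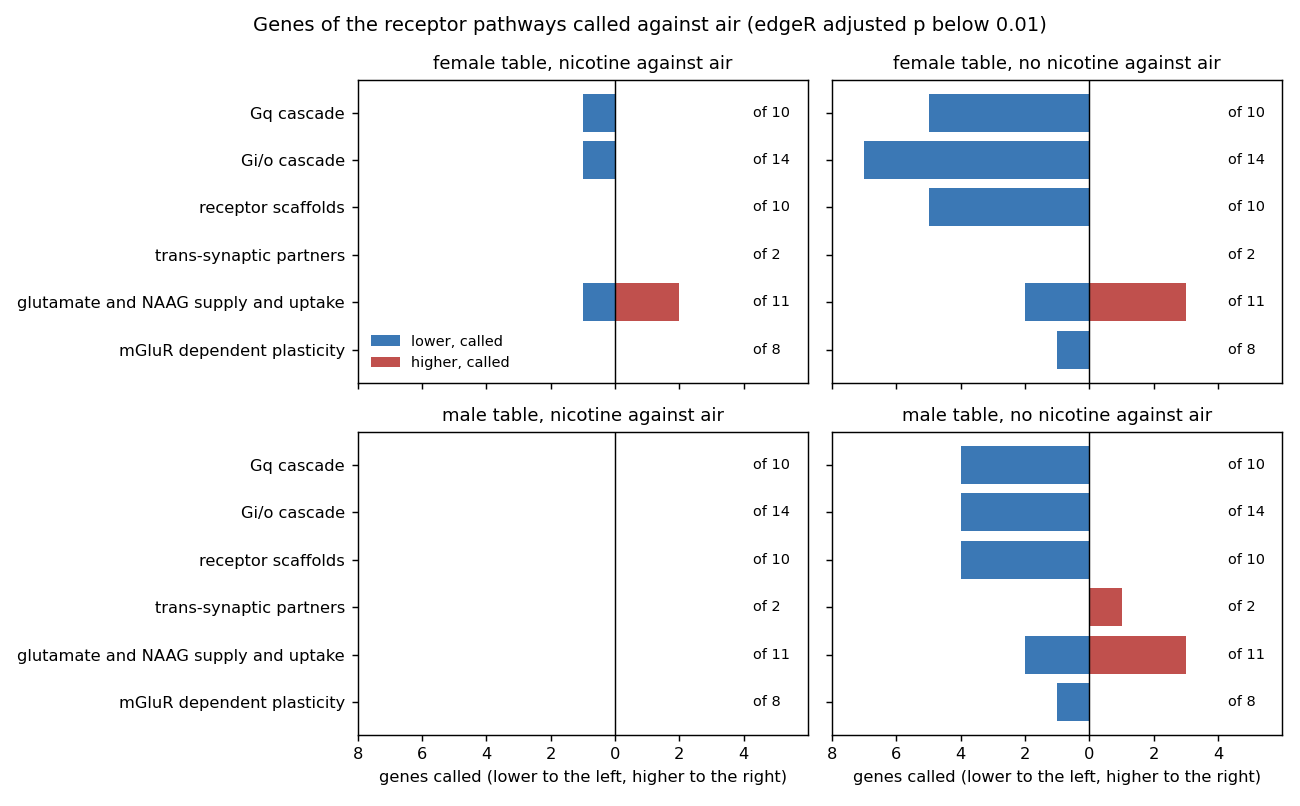
Number of genes of each pathway list called lower (blue, to the left) and higher (red, to the right) against air, with the number tested at the right of each row. The bars to the left are longest without nicotine, where 20 genes in the female table and 15 in the male table were called lower.

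On the postsynaptic side, 5 of the 10 genes of the Gq cascade were called lower in female offspring without nicotine and 4 in male offspring without nicotine. With nicotine 1 was called lower in female offspring and 0 in male offspring. Gnaq, the alpha subunit of Gq, stood at 335 ± 14.8 CPM (SD, n = 6) in air-exposed female offspring and fell to 287 ± 8.20 CPM (SD, n = 5) without nicotine (log2 fold change −0.22, adjusted p = 0.00137). It fell by 0.24 on the log2 scale in male offspring without nicotine (adjusted p = 0.000174). In female offspring with nicotine Gnaq was called too, with a fall of 0.23 (adjusted p = 0.00228). In male offspring with nicotine its value was −0.13 (adjusted p = 0.103 in edgeR and 0.00969 in DESeq2). Of the 10 receptor scaffolds, 5 and 4 were called lower in female and in male offspring without nicotine. Shank2 fell by 0.59 (adjusted p = 0.00257) and by 0.53 (adjusted p = 0.000377). Homer2, which ties group I receptors to their intracellular calcium stores, fell by 0.54 in both (adjusted p = 0.00189 and 0.00202). With nicotine Shank2 and Homer2 were not called by edgeR in either sex, at adjusted p from 0.0156 to 0.138. In female offspring with nicotine both were called by DESeq2 (adjusted p = 0.00584 and 0.00248) and by limma-voom (adjusted p = 0.00695 and 0.00449). There edgeR called both when nicotine replicate 3 was left out (adjusted p = 0.00785 and 0.0044). It also did so when no nicotine replicate 1 was left out (adjusted p = 0.00519 and 0.00593).

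On the Gi/o side, which serves groups II and III, 7 of 14 genes were called lower in female offspring without nicotine, 4 in male offspring without nicotine, 1 in female offspring with nicotine and 0 in male offspring with nicotine. Adcy9, an adenylyl cyclase, stood at 55.2 ± 4.603 CPM (SD, n = 6) with air and at 38.03 ± 2.899 CPM (SD, n = 5) without nicotine in female offspring, a fall of 0.54 on the log2 scale (adjusted p = 0.000807). It fell by 0.38 in female offspring with nicotine (adjusted p = 0.0049, and 0.0112 to 0.0183 without any 1 of air replicates 2, 4, 5 and 6 and nicotine replicates 1, 2 and 6) and by 0.38 in male offspring without nicotine (adjusted p = 0.000326). Rgs7, which shortens Gi/o signals, fell by 0.34 and by 0.40 without nicotine (adjusted p = 0.00226 in female and 6.5e-05 in male offspring). Of the partners that hold group III receptors in place from across the synapse, Elfn1 rose by 0.41 in male offspring without nicotine (adjusted p = 0.00345, and 0.0102, 0.0103 and 0.0131 without air replicate 31, air replicate 38 and no nicotine replicate 3). In female offspring without nicotine the Elfn1 value was 0.52 with an adjusted p of 0.01002, just above the threshold, and the call was made without air replicate 1, nicotine replicates 3 or 6 or no nicotine replicate 1 (adjusted p from 0.00444 to 0.00538). Elfn2 was not called in any of the 4 comparisons.

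Glutamate supply and uptake gave calls in both directions, with 3 of 11 genes higher and 2 lower without nicotine in each sex, 2 higher and 1 lower in female offspring with nicotine, and 0 in male offspring with nicotine. Rimkla, an enzyme that makes NAAG, the peptide agonist of Grm3, stood at 19.2 ± 2.57 CPM (SD, n = 6) in air-exposed female offspring and rose to 31.1 ± 5.87 CPM (SD, n = 5) without nicotine. Its log2 fold change was 0.69 there (adjusted p = 0.00162), 0.60 in female offspring with nicotine (adjusted p = 0.00744) and 0.60 in male offspring without nicotine (adjusted p = 2.2e-05). With nicotine in female offspring the call of Rimkla was lost without any 1 of air replicates 2, 4, 5 and 6, nicotine replicates 1, 2, 5 and 6 and no nicotine replicate 5 (adjusted p up to 0.0247). Among 8 genes of receptor-dependent plasticity, 1 was called lower without nicotine in each sex. This was Fmr1, whose product represses translation downstream of group I receptors. It fell by 0.23 in female (adjusted p = 0.00305, and 0.0111 and 0.0123 without no nicotine replicates 2 and 3) and by 0.27 in male offspring (adjusted p = 7.7e-05). Eef2k, a kinase of the same process, was not called by edgeR in any of the 4. In female offspring without nicotine its value was −0.18 (adjusted p = 0.0199), with 0.00799 in DESeq2 and 0.0098 in edgeR without nicotine replicate 2. With the cortical marker score as a covariate none of these named genes was called in the comparisons with air, and the part of these markers in the values was not tested further.

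Within the groups, libraries that were high or low in one receptor were also so in certain other genes. Likeness was measured as Pearson's r between log2 CPM deviations from the group means, over the 16 female and the 17 male libraries, ranking 15104 genes by the lower of the 2 values. The genes nearest to Grm2 were Adra1d (r of 0.91 in female and 0.88 in male libraries), Hkdc1 (0.89 and 0.84) and Serpinb8 (0.84 and 0.85). Among those nearest to Grm3 were Dlg4 (0.92 and 0.88) and Psd (0.89 and 0.88). Those nearest to Grm5 were Dgkb (0.87 and 0.87), Tomm70a (0.85 and 0.91) and Rps6ka5 (0.84 and 0.86). For Grm4 they were Sema3f (0.90 and 0.84), Syt6 (0.82 and 0.89) and Prkch (0.88 and 0.82). For Grm7 they were Synrg (0.86 and 0.85), Dhx36 (0.85 and 0.85) and Dip2c (0.84 and 0.83), and for Grm8 Cltc (0.80 and 0.80), Wdr47 (0.78 and 0.79) and Oxr1 (0.75 and 0.82). The male r of these genes lay between 0.77 and 0.91 without replicate 21, and Serpinb8, Syt6 and Oxr1 ranked 5, 5 and 4 by likeness to their members. The points share library, depth and dissection, so these values are descriptions.

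The members were less alike among themselves. Grm2 and Grm3 had an r of 0.80 in female libraries (n = 16) and of 0.24 in male libraries (n = 17, and 0.37 without replicate 21), a difference that was not tested. By the lower of the 2 values Grm3 ranked 1384 among 15104 genes in likeness to Grm2. For Grm3 and Grm7 r was −0.78 in male libraries (−0.79 without replicate 21) and −0.36 in female libraries. For Grm5 and Grm4 it was 0.72 in female and 0.57 in male libraries, and for Grm5 and Grm7 0.74 and 0.46 (0.58 and 0.48 in male libraries without replicate 21).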

How the data were processed

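RNA was sequenced from the frontal cortex of 33 mouse pups, and the deposited values used are raw read counts per gene. The authors made these counts from single 50-base TruSeq reads, mapped with Bowtie to the mm9 transcriptome, cleared of PCR duplicates with Samtools and counted with HTSeq. Nothing states whether the counting used strand. The deposited normalized tables, the same counts divided by size factors, were not used. Of the female columns, 1 matched no sample and was not used.

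Each sex was fitted separately, with its 3 groups in 1 fit, by edgeR 4.0.16 (R 4.3.3, limma 3.58.1): TMM scaling, a filter keeping genes whose CPM sum to at least 5 over the libraries, the quasi-likelihood test, and Benjamini-Hochberg adjustment over all genes tested, called below 0.01. The filter removed at most 0.0341% of a library's counts. Totals per library (medians 23583389.5 in the female and 20907489 in the male table) left at least 172 counts for the scarcest member. The difference between sexes was an interaction term over genes tested in both. Replicates were separate pups of separate litters. The fit was tested on simulated counts.

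The genes named were the 6 members, the family gene Grm6, the 2 genes of each pathway list called in most comparisons with air (ties by the smallest p), and the 3 genes most like each member. Some genes that this rule names are not reported here. Marker scores are the mean log2 CPM of a list. Members and lists were chosen with earlier results of these data known. Alternatives were DESeq2 1.42.0, limma-voom with sample quality weights, other size factors and filters, fits of the compared groups alone, marker scores as covariates, the replicate block and leaving out each library. The alternatives for the likeness ranking, for the pathway counts and for marker scores without male nicotine replicate 21 were chosen after seeing the data.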

Additional observations from a re-analysis of the deposited data

Results flagged for a closer look

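In 3 of the 36 groups of values (6 members in each sex and treatment), 1 library stood far from the others of its group, by Dixon's criterion on the gap to the nearest library as a share of the range. Chance alone gives such a gap in about 1 in 20 groups. Grm2 stood at 32.7 CPM in female no nicotine replicate 1, with the other 4 libraries at 18.7 to 22.4 CPM. Grm2 stood at 30.5 CPM in male air replicate 33, with the other 5 libraries at 43.9 to 49.9 CPM. Grm4 stood at 35.6 CPM in male nicotine replicate 19, with the other 5 libraries at 21.1 to 26.4 CPM. Leaving out air replicate 33 brought the male Grm2 difference without nicotine past the threshold (adjusted p = 0.00896), and leaving out nicotine replicate 19 did so for Grm4 (adjusted p = 0.00915). The Grm2 call in female offspring without nicotine stood with and without replicate 1.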

How the results depend on the processing

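Of 350 member fold changes under alternatives other than leaving out a library, 323 kept direction and side of the threshold, and of 594 that left out 1 library 565 did. In female offspring without nicotine, 2 members were called, and 1 to 2 with a library left out, but 0 with the cortical marker score (0 genes of the whole table called), 0 with the striatal score (220 genes) and 0 with the replicate block (1 gene, against 1829 without it, Grm2 −1.37, adjusted p = 0.0211, and Grm3 −0.37, adjusted p = 0.0239). Same-numbered female libraries did not deviate together (r from −0.27 to 0.27), but this cannot show whether their numbers mark shared handling. The sources used here do not state what the numbers stand for. The block fit kept only libraries whose number occurs in both groups compared. The replicate block also removed the female calls of the named pathway genes, whose values stayed close (Gnaq −0.22, Adcy9 −0.53, Shank2 −0.60 and Homer2 −0.53 without nicotine). No paired analysis was possible in male offspring because their groups share no replicate numbers. In male offspring without nicotine, 0 members were called, beside 2084 genes in all, but 1 in the fit of those groups alone (Grm8, 1755 genes), 1 with limma-voom (Grm2, 2317 genes), 2 with DESeq2 (2624 genes), 1 with the striatal score (Grm5, 1076 genes), and 0 to 2 with a library left out.

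With the cortical score the sign reversed for Grm3 (0.17) and Elfn1 (−0.18) in female offspring with nicotine and for Grm3 (0.051) and Elfn1 (−0.12) without nicotine. It did so for Grm2 (0.070) and Eef2k (0.068) in male offspring with nicotine, and for Grm2 (0.17 with and without replicate 21), Grm3 (0.11), Eef2k (0.093) and Elfn2 (0.033) without nicotine. Between the aerosols it reversed for Grm2 (−0.030) in female and for Grm2 (−0.10) in male offspring. With the striatal score it reversed for Grm4 in female offspring with (−0.016) and without nicotine (−0.11), for Grm4 (−0.045, and −0.11 without replicate 21) and Eef2k (0.037) in male offspring with nicotine, and for Eef2k (0.0090) and Elfn2 (0.0095) without nicotine. Between the aerosols it reversed for Grm5 (−0.030) and Grm8 (0.00085) in female and for Grm3 (0.0090) in male offspring, where limma-voom gave 0.0087 for Grm3. With 1 library left out, the sign of values near 0 turned for Grm5 with nicotine (−0.090 to 0.030 in female and −0.052 to 0.0073 in male offspring) and, between the aerosols, for Grm8 in female (−0.045 to 0.059) and Grm3 (−0.073 to 0.046) in male offspring.

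Pathway genes called numbered 5 in female offspring with nicotine, beside 651 genes in all, but 8 in the fit of those groups alone (627 genes), 9 with limma-voom (1012), 12 with DESeq2 (1319), 0 with the cortical score (1), the striatal score (0) or the replicate block (131), and 2 to 13 with a library left out. Without nicotine they numbered 23, but 0 with the cortical score or the replicate block, 3 with the striatal score (all-gene counts as above) and 10 to 28 with a library left out. In male offspring they numbered 0 with nicotine, but 2 in the fit of those groups alone (17 genes in all) and 3 with DESeq2 (159), and 19 without nicotine, but 0 with the cortical score (12). The cause of these shifts was not tested. Groups of 5 to 6 libraries set the width of the printed intervals, and where an interval spans 0 a difference of a size inside it cannot be told from none.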
